A study of Mus musculus with 12 samples.

Results

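NADPH oxidases pass electrons from NADPH to oxygen and so make superoxide or hydrogen peroxide. Each enzyme has a catalytic subunit in the membrane and, for most members, partner proteins that stabilize, organize or activate it. Phagocytes such as neutrophils and macrophages carry the enzyme built on NOX2 (*Cybb*), with p22phox (*Cyba*) and p47phox (*Ncf1*) among its partners, and use it against microbes. Epithelia, the gut lining among them, use NOX1 with the paralogous organizer *Noxo1* and activator *Noxa1*, and the dual oxidases, whose exit from the endoplasmic reticulum needs a maturation factor (*Duoxa1* or *Duoxa2*). A list of 9 genes was described here, *Nox1*, *Noxo1*, *Noxa1*, *Nox4*, *Duox2*, *Duoxa2*, *Cyba*, *Cybb* and *Ncf1*, chosen by name as catalytic or regulatory subunits. The choice was made with earlier results of these data known. All 9 were among the 15687 genes in the table of normalized counts. Gene positions are those of GENCODE on the mouse build GRCm38.

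The values came from RNA sequencing of subcutaneous syngeneic allograft tumors grown from mTC11 cells (mTc11 in the labels), a mouse lung cancer line. The control cells (CTL) carried a scrambled shRNA and are given the genotype WT in the labels, and the others carried an shRNA against *Filip1l*. In both groups the same number of cells, in growth factor-reduced Matrigel, was injected into male C57BL6/J mice 8 weeks old, and the tumors were taken on day 24, 6 per group. The cells were mixed clones from lentiviral transduction and selection. A pair of *Filip1l* constructs existed, and which of them the sequenced tumors carried is not stated in the sources used here. The labels call the tumors of a group biological replicates, so p-values measure the spread between these tumors and not between independent transductions.

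Tumors had 17834745 to 29502069 reads on listed genes in the CTL group and 25460564 to 32419578 in the *Filip1l*-knockdown group. *Filip1l* itself (ENSMUSG00000043336) averaged 2311 ± 211 normalized counts in the CTL group (SD, n = 6) and 1924 ± 165 in the knockdown group (SD, n = 6), and its log2 fold change was -0.26 (limma adjusted p = 0.00998), and the groups overlapped. A bulk tumor also holds cells of the host, and fewer cells of a type and less RNA per cell cannot be told apart in such values. *Filip1l*-knockdown replicate 1 stood apart in its leukocyte markers. Its 8 pan-leukocyte markers summed to 24771 normalized counts, against 11618 to 15662 in CTL tumors and at most 15104 in the other *Filip1l*-knockdown tumors. The log2 fold changes of the phagocyte genes are therefore given with and without it. Of the lung markers, *Sftpc* (surfactant protein C) was between 0 and 53.0 normalized counts in CTL tumors and between 0 and 60.5 in *Filip1l*-knockdown tumors, and *Nkx2-1*, the lung lineage factor, reached at most 37.3 and 90.6. *Napsa*, an aspartic protease of lung epithelium, was at 183 to 293 in CTL and 262 to 624 in *Filip1l*-knockdown tumors (log2 fold change 0.88, limma adjusted p = 0.00248), and *Sftpb*, surfactant protein B, reached 94.1 and 760 (log2 fold change 2.80, limma adjusted p = 0.0463).

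The epithelial oxidases *Nox1* and *Duox2*, with the maturation factor *Duoxa2*, were 8.37- to 9.51-fold higher in *Filip1l*-knockdown tumors. The phagocyte subunits *Cybb* and *Ncf1*, with log2 fold changes of -0.055 and 0.12, did not pass the test. Neither did *Cyba* (0.064), a subunit that NOX1 and NOX2 share. A gene was called where its limma p, adjusted over all genes, was under 0.05 and its log2 fold change, on the scale of log2 of the normalized count plus 1, was over 1 in size. Of the 9 genes, 3 were called higher, against 6.2% of all genes, and 0 were called lower, against 3.97% of all genes. On the adjusted p alone 4 of 9 passed, against 41.9% of all genes. The groups did not overlap for 3 of 9 genes, against 21.5% of all genes. The median log2 fold change over the 9 genes was 0.85, and over all genes it was 0.0078.

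**Figure D1:**
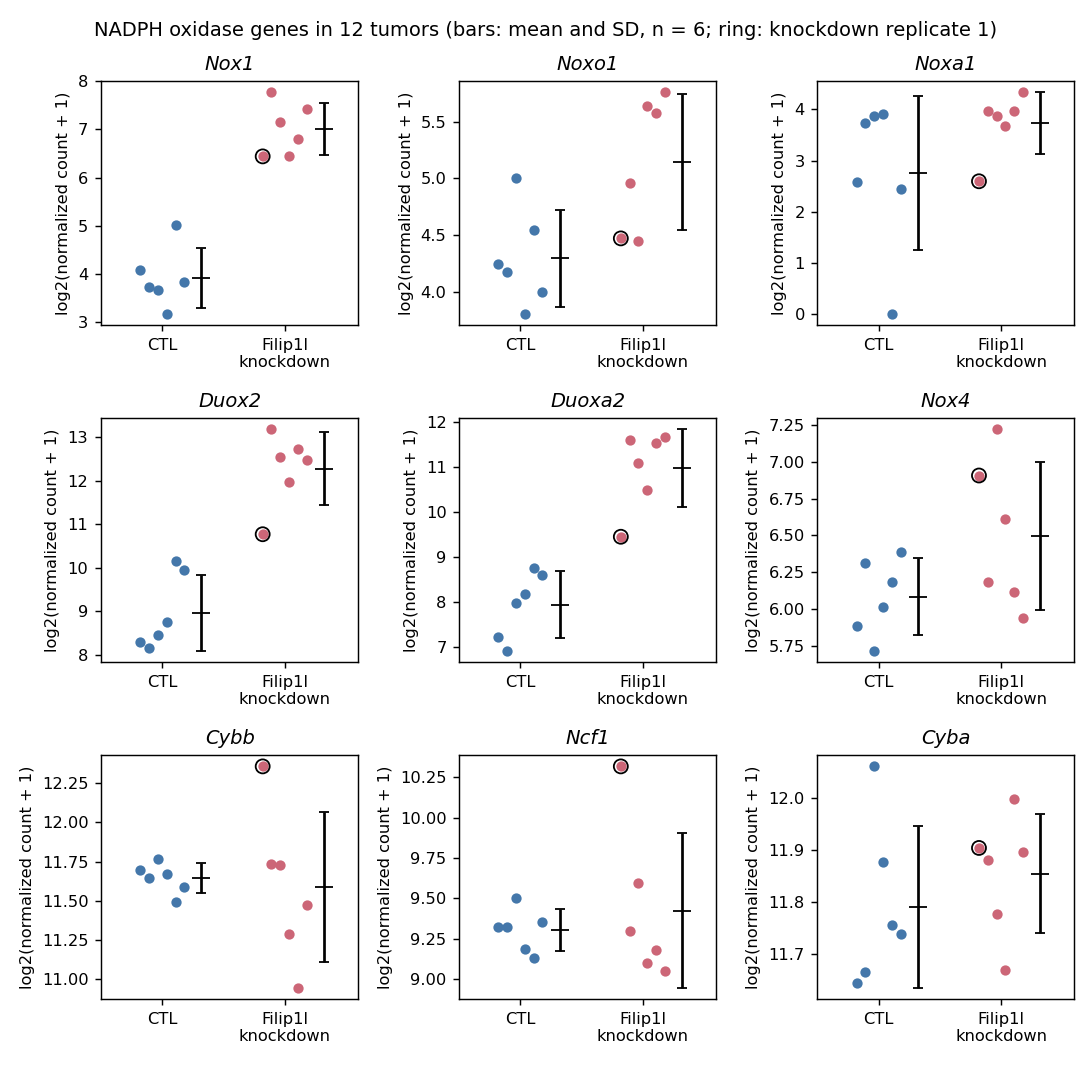
Level of each of the 9 genes in every tumor, as log2 of the normalized count plus 1, with CTL tumors in blue and *Filip1l*-knockdown tumors in red (bars are mean and SD, n = 6, and the ring marks knockdown replicate 1). Each panel has its own vertical axis, which does not start at 0. For *Nox1*, *Duox2* and *Duoxa2* every red point lies above every blue point, and for *Cybb* and *Ncf1* the ringed tumor lies above the other 11.

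*Nox1*, the catalytic subunit of the colon-type oxidase (ENSMUSG00000031257, chromosome X, 134086421 to 134221956, - strand), was a low gene in CTL tumors. Its lowest, median and highest values were 7.97, 12.8 and 31.4 normalized counts in CTL tumors. In *Filip1l*-knockdown tumors they were 85.7, 126 and 218. The lowest *Filip1l*-knockdown tumor was thus above the highest CTL tumor, replicate 5, which was also the least deeply sequenced library. The means were 15.4 ± 8.23 and 135 ± 52.0 (SD, n = 6 each), the log2 fold change was 3.09 (standard error, SE, 0.31) and the limma adjusted p was 3.62e-06. By an exact two-sided permutation test p was 0.00216, the smallest value that 924 arrangements of 12 tumors allow. The 3′ end of *Nox1* shares 399 exonic bases, 12.1% of its length, with *Cstf2* on the opposite strand, a gene at 1655 normalized counts in CTL and 1763 in *Filip1l*-knockdown tumors (log2 fold change 0.092).

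*Duox2*, a dual oxidase that releases hydrogen peroxide at the apical face of epithelia (ENSMUSG00000068452, chromosome 2, 122279247 to 122298449, - strand), showed the same separation at a higher level. CTL tumors ran from 282 to 1147 normalized counts with a median of 390. *Filip1l*-knockdown tumors ran from 1743 to 9261 with a median of 5809. CTL replicates 5 and 6, at 1147 and 988, stood above the other 4 CTL tumors, which did not exceed 430, and *Filip1l*-knockdown replicate 1 was the lowest of its group. The means were 585 ± 380 and 5562 ± 2535 (SD, n = 6 each), and the log2 fold change was 3.31 (SE 0.42, limma adjusted p = 2.59e-05, exact permutation p = 0.00216).

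*Duoxa2*, the factor DUOX2 needs to leave the endoplasmic reticulum (ENSMUSG00000027225, chromosome 2, 122298900 to 122302885, + strand), had a lowest, median and highest value of 118, 270 and 427 normalized counts in CTL tumors. In *Filip1l*-knockdown tumors these were 695, 2565 and 3214. The tumors were ordered much as for *Duox2*, with CTL replicates 5 and 6 the highest controls and knockdown replicate 1 the lowest of its group. The means were 270 ± 124 and 2260 ± 1027 (SD, n = 6 each), and the log2 fold change was 3.03 (SE 0.40, limma adjusted p = 3.47e-05, exact permutation p = 0.00216). Within a tumor, *Duoxa2* stood at 0.372 to 0.714 of *Duox2* in CTL and at 0.335 to 0.563 in *Filip1l*-knockdown tumors. This ratio, examined after the data had been seen, had a log2 difference between groups of -0.29 (exact two-sided permutation p = 0.184), and the ranges overlapped.

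The 250 bases before the start of *Nox1* and of *Duoxa2*, which were called as *Duox2* was, are printed below. They come from RefSeq on GRCm38.p6 and read 5′ to 3′ on the strand of the gene. The *Nox1* window is chrX:134111855-134112104 (- strand), inside the longer span that GENCODE gives the gene and outside its annotated exons. The *Duoxa2* window is chr2:122298650-122298899 (+ strand), within the 450 bases that separate the annotated starts of *Duox2* and *Duoxa2*, which are transcribed away from each other.
Nox1: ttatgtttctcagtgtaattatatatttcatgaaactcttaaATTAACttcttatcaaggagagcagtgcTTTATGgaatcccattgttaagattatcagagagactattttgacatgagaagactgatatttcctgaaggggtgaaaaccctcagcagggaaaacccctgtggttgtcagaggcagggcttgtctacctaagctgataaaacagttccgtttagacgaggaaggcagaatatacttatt
Duoxa2: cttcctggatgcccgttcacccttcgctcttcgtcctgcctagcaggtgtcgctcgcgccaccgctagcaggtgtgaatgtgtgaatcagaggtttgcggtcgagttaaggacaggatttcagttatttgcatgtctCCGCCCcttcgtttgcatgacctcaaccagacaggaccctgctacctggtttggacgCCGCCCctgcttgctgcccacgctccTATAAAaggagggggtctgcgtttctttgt
Capitals mark matches, on either strand, to the ungapped motifs that were searched for in every window. *Duoxa2* held the TATA box (TATAAA) with its 5′ base 30 bases before the start of the gene. It also held a GC box (GGGCGG), the element that Sp1-family factors recognise, on the reverse strand, at 113 and again at 56 bases before the start. *Nox1* held a motif of the type bound by the intestinal CDX factors (TTTATG) at 180 bases before its start. It held a motif of the HNF1 type (GTTAAT) on the reverse strand at 208 bases before its start. The window of *Duox2*, not printed, held the same HNF1-type motif 115 bases before its start. Of the GATA-type motif only the form AGATAA was searched for, and it was found in none of these windows. The form TGATAA was not searched for and can be read in the *Nox1* window, left in lower case. Among 32851 RefSeq promoters, the same 250 bases held the TATA box in 12.4%, the GC box in 32.7% and AGATAA in 9.99%. They held the CDX-type motif in 10.8% and the HNF1-type motif in 6.43%. Windows were also searched for TTCNNNGAA, a STAT-type motif that reads the same on both strands. It was in 7.02% of promoters and in none of the *Nox1*, *Duox2* and *Duoxa2* windows. A gapped NF-κB-type pattern, present in 45.8% of promoters, matched *Nox1* at overlapping positions 92 and 91 bases before its start, left in lower case, and neither of the other windows. Windows of the members not called also held motifs. The GC box was in those of *Noxo1*, *Nox4*, *Cyba* and *Ncf1*, and AGATAA in those of *Noxa1*, *Cyba* and *Cybb*. The STAT-type motif was in those of *Nox4* and *Ncf1*, and the NF-κB-type pattern in all of them. The TATA box and the CDX-type and HNF1-type motifs were in none of them. All of these are matches of letters only.

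The partners of NOX1 changed less. *Noxo1*, the organizer that brings the activator to NOX1 (ENSMUSG00000019320, chromosome 17, 24696234 to 24700529, + strand), had a lowest, median and highest value of 13.0, 17.5 and 31.1 normalized counts in CTL tumors. In *Filip1l*-knockdown tumors these were 20.9, 38.4 and 53.3, and 3 of the 6 lay above the highest CTL tumor. The log2 fold change was 0.85 (SE 0.30, limma adjusted p = 0.0346, exact permutation p = 0.0260), which passed on the adjusted p and was below the fold threshold. With 1 tumor left out at a time, this p ran from 0.0158 to 0.0817 after adjustment, and it missed 0.05 without CTL replicate 1, 2, 4 or 6 and without knockdown replicate 4, 5 or 6. Exons of the opposite-strand gene *Tbl3*, at 1109 normalized counts in CTL and 1241 in *Filip1l*-knockdown tumors, cover 70.4% of the annotated exonic bases of *Noxo1*. The sources used here do not give the strand setting of the counting, so reads of the pair cannot be told apart there.

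*Noxa1*, the activator that matches NOXO1 (ENSMUSG00000036805, chromosome 2, 25085667 to 25095149, - strand), ran from 0 to 14.0 normalized counts in CTL tumors, with a median of 8.66. It ran from 5.04 to 19.2 in *Filip1l*-knockdown tumors, with a median of 14.1. The tumor at 0 was CTL replicate 5, where 3 reads correspond to 4.48 normalized counts, and the groups overlapped. The log2 fold change was 0.98 with a 95% interval from -0.32 to 2.28 (limma adjusted p = 0.216), an interval that includes both no change and a rise of more than the fold threshold. Leaving out CTL replicate 5 gave 0.43 (limma adjusted p = 0.440), and a pseudocount of 8 gave 0.44. Its exons share 50 bases with *Entpd8* on the opposite strand, which had 7.50 normalized counts in CTL and 79.8 in *Filip1l*-knockdown tumors.

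*Nox4*, a constitutively active oxidase known from kidney and fibroblasts (ENSMUSG00000030562, chromosome 7, 87246096 to 87398710, + strand), ran from 51.5 to 82.9 normalized counts in CTL tumors (median 67.7) and reached 60.3 to 148 with *Filip1l* knocked down (median 84.4). Its log2 fold change of 0.41 (95% interval -0.061 to 0.89, limma adjusted p = 0.152) did not pass.

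*Cybb*, the catalytic subunit of the phagocyte oxidase (ENSMUSG00000015340, chromosome X, 9435252 to 9487771, - strand), ran from 2874 to 3484 normalized counts in CTL tumors, with a median of 3228. *Filip1l*-knockdown tumors ran from 1967 to 5240, with a median of 3112, and enclosed the whole CTL range. The highest value was that of *Filip1l*-knockdown replicate 1, the tumor with the highest leukocyte markers. The log2 fold change was -0.055 (95% interval -0.42 to 0.31, limma adjusted p = 0.830). Without replicate 1 the *Filip1l*-knockdown mean went from 3225 ± 1129 (SD, n = 6) to 2822 ± 612 (SD, n = 5) and the log2 fold change to -0.21 (limma adjusted p = 0.183).

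*Ncf1*, the phagocyte organizer p47phox (ENSMUSG00000015950, chromosome 5, 134220053 to 134229625, - strand), ran from 559 to 725 normalized counts in CTL tumors, with a median of 640. It ran from 528 to 1275 in *Filip1l*-knockdown tumors, with a median of 603. Replicate 1 was again the highest *Filip1l*-knockdown tumor, and the next was at 773. The log2 fold change was 0.12 (95% interval -0.26 to 0.50, limma adjusted p = 0.631) and -0.060 without replicate 1. On the opposite strand *Gtf2ird2* covers 11.1% of the exonic bases of *Ncf1*. *Cyba*, the p22phox subunit that stabilizes NOX1, NOX2 and NOX4 alike (ENSMUSG00000006519, chromosome 8, 122424776 to 122432930, - strand), ran from 3198 to 4272 normalized counts in CTL tumors (median 3435) and reached 3254 to 4091 with *Filip1l* knocked down (median 3791). Its log2 fold change was 0.064 (95% interval -0.098 to 0.23, limma adjusted p = 0.532) and 0.055 without replicate 1 (limma adjusted p = 0.621). Genes of chromosome 8 had a median log2 shift of -0.20 in *Filip1l*-knockdown tumors against CTL tumors. Chromosomes 14 (0.38) and 19 (-0.36) had larger shifts, and the cause of such shifts was not tested. With chromosome medians removed *Cyba* was at 0.26 (limma adjusted p = 0.00789), below the fold threshold. Those medians were taken over bulk tumors, host cells included.

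Divided by the length of the annotated exons, the mean levels in CTL tumors ran from *Cyba*, at 3424 ± 388 normalized counts per kb (SD, n = 6), through *Cybb* at 551 ± 36.0, *Ncf1* at 173 ± 16.0, *Duoxa2* at 170 ± 78.1 and *Duox2* at 86.4 ± 56.2, to *Nox4* at 8.00 ± 1.43. *Noxo1* at 6.44 ± 2.17, *Noxa1* at 5.08 ± 3.62 and *Nox1* at 4.66 ± 2.49 closed the order. *Ncf1* and *Duoxa2*, and the last 4 genes, differed from their neighbours by less than their spread. The lengths include bases shared with genes of the opposite strand, 70.4% of those of *Noxo1* and 42.8% of those of *Duoxa2*. How reads there were counted is not known, and the effect on this order was not tested. In *Filip1l*-knockdown tumors *Duoxa2*, at 1420 ± 645 per kb, and *Duox2*, at 821 ± 374, stood above *Cybb* at 555 ± 194, though *Duox2* and *Cybb* differed by less than their spread, and *Nox1* reached 40.9 ± 15.7. *Cyba* remained the highest at 3572 ± 280.

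**Figure D2:**
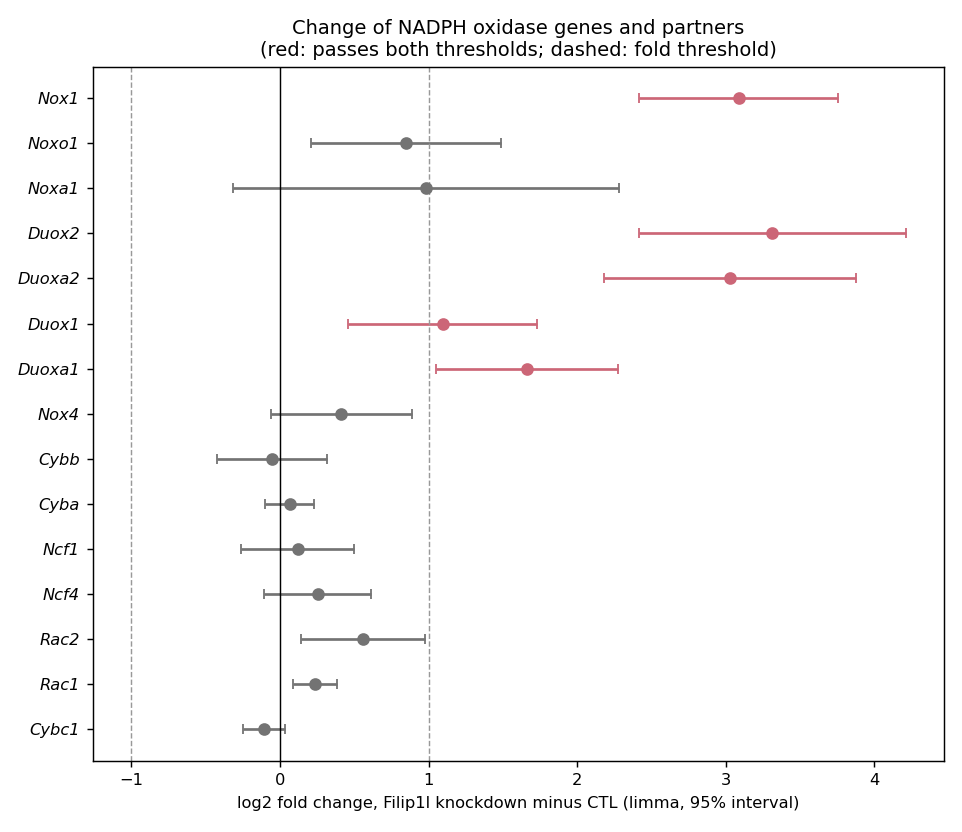
Log2 fold change of the 9 genes and 6 of their partners (horizontal axis, *Filip1l* knockdown minus CTL) with 95% limma intervals, red where both thresholds were passed and dashed lines at the fold threshold. *Nox1*, *Duox2* and *Duoxa2* lie at 3.03 to 3.31, *Duox1* and *Duoxa1* at 1.09 and 1.66, and the intervals of *Cybb*, *Cyba* and *Ncf1* include 0.

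The epithelial and phagocyte subunits were then compared within each tumor, as the log2 ratio of an epithelial subunit to its phagocyte paralog. The ratio of *Nox1* to *Cybb* ran from -8.50 to -6.47 in CTL tumors and lay at -5.92 to -3.97 in *Filip1l*-knockdown tumors. It was higher by 3.14 in *Filip1l*-knockdown tumors (exact two-sided permutation p = 0.00216, adjusted over 3 ratios 0.00649), with no overlap. The organizers, *Noxo1* to *Ncf1*, differed by 0.73 (exact permutation p = 0.136, adjusted 0.203), with overlap. This call depended on *Filip1l*-knockdown replicate 1, and without it the difference was 1.04 (exact permutation, adjusted p = 0.0303).

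**Figure D3:**
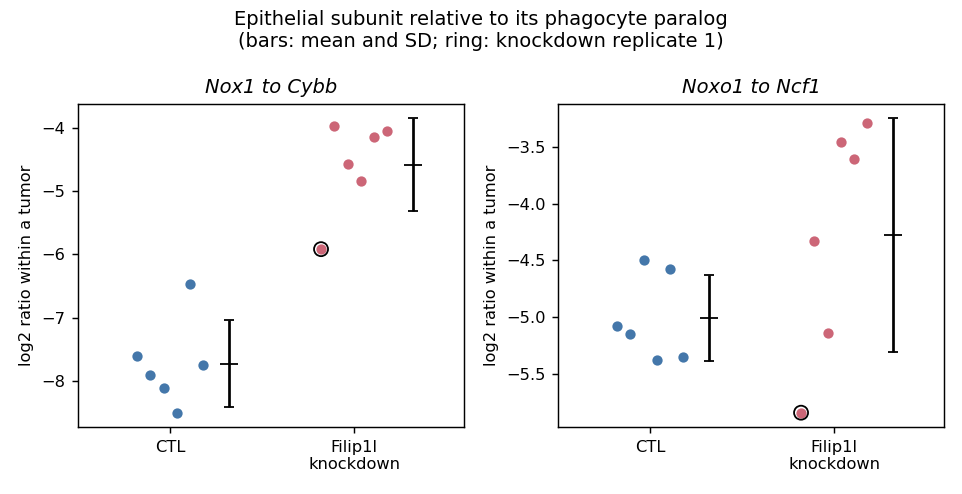
Log2 ratio of an epithelial subunit to its phagocyte paralog within each tumor, with CTL in blue and *Filip1l* knockdown in red (bars are mean and SD, n = 6, and the ring marks knockdown replicate 1). Vertical axes differ between panels and do not start at 0. The groups are apart for *Nox1* to *Cybb*, and in both panels the ringed tumor lies lowest of its group.

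Levels of *Cybb*, *Ncf1* and *Cyba* were set against leukocyte markers of the same tumor, as the log2 level minus the mean log2 level of the markers. Of the 8 pan-leukocyte markers 0 were called, and of 11 macrophage markers only *Cd163* was called higher. Relative to the pan-leukocyte markers *Cybb* differed by -0.23 (exact permutation p = 0.0325, adjusted over 3 genes 0.0974), *Ncf1* by -0.058 (exact permutation p = 0.487, adjusted 0.617) and *Cyba* by -0.11 (exact permutation p = 0.617, adjusted 0.617). For *Cybb* the adjusted p was 0.0195 without CTL replicate 3 (difference -0.28), and for *Cyba* the difference was 0.027 without knockdown replicate 1. Neutrophil markers went another way, with 6 of 8 called higher (*S100a8*, *S100a9*, *Csf3r*, *Cxcr2*, *Mmp8* and *Retnlg*), against 6.2% of all genes. *S100a9*, a calprotectin subunit, rose from 90.0 to 138 normalized counts in CTL tumors to 276 to 481 in *Filip1l*-knockdown tumors. The granule genes *Mmp9* and *Ltf* did not pass. The summed level of the 8 neutrophil markers overlapped between the groups (1792 to 2490 and 1713 to 3488 normalized counts). *Mmp9* (656 to 1456) and *Ltf* (263 to 1444) were the largest of the 8 in CTL tumors and weigh most in that sum. Taken singly, 5 of the 8 did not overlap between the groups, against 21.5% of all genes. Relative to the neutrophil markers *Cybb*, *Ncf1* and *Cyba* were lower, with log2 differences of -1.17, -1.0 and -1.06 (exact permutation, adjusted p = 0.00216 each). These differences restate the higher level of the reference, of which 6 of 8 markers were called higher. They are no separate test of the 3 genes.

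**Figure D4:**
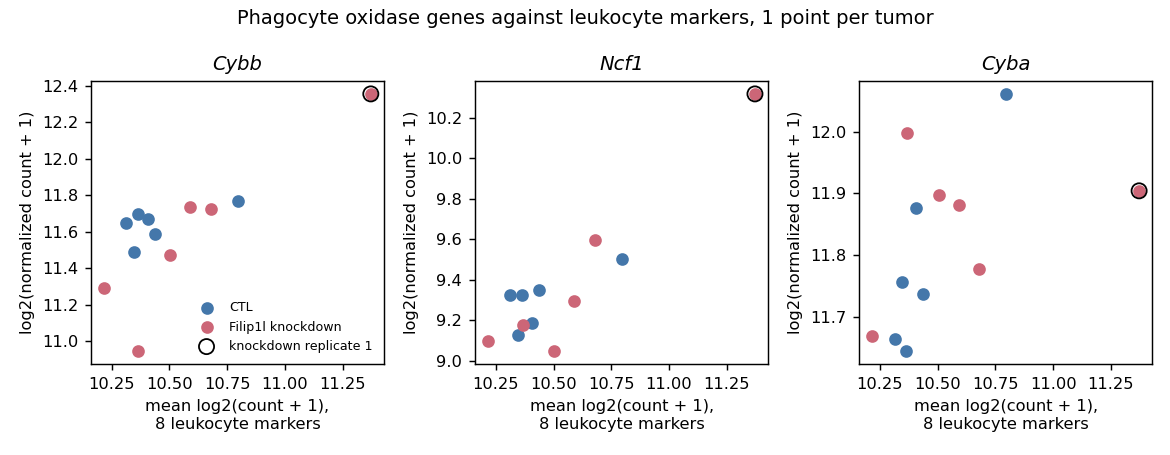
Level of *Cybb*, *Ncf1* and *Cyba* (vertical axis, log2 of the normalized count plus 1) against the mean log2 level of 8 pan-leukocyte markers (horizontal axis), 1 point per tumor, with neither axis starting at 0. The ringed tumor, *Filip1l*-knockdown replicate 1, has a marker mean of 11.4 where the other 11 tumors lie between 10.2 and 10.8, and it is the highest for *Cybb* and *Ncf1*.

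The epithelial oxidase genes moved beside markers of epithelium. Of 6 epithelium markers 4 were called higher (*Epcam*, *Krt8*, *Krt19* and *Cldn7*), against 6.2% of all genes. The summed level of the 6 was 135463 to 176172 normalized counts in CTL and 189996 to 354598 in *Filip1l*-knockdown tumors. Of 6 intestinal epithelium markers 5 were called higher (*Cdx2*, *Vil1*, *Cdh17*, *Lgals4* and *Hnf4g*), with sums of 20355 to 25215 and 52066 to 104838. Of the markers not called, *Krt18* was at a log2 fold change of 0.44 (limma adjusted p = 0.0122). *Cdh1* was at 0.0082 (limma adjusted p = 0.950) and the intestinal marker *Hnf4a* at 0.14 (limma adjusted p = 0.152). The marker levels used next include these genes. In scales chosen after the data had been seen, *Nox1*, *Duox2* and *Duoxa2* were higher relative to the epithelium markers by 1.92, 2.15 and 1.87 on the log2 scale (exact permutation, adjusted p = 0.00289 each). Relative to the intestinal markers they were higher by 1.22, 1.45 and 1.16 (exact permutation, adjusted p = 0.0130, 0.0144 and 0.0152). On this intestinal scale the groups overlapped for each of these genes, and on the epithelium scale they did not. *Noxo1* differed by -0.31 relative to the epithelium markers (exact permutation, adjusted p = 0.253). It was lower relative to the intestinal ones (a log2 difference of -1.02, exact permutation, adjusted p = 0.00866). Which cells of the tumor carried the oxidase transcripts was not tested. Skeletal muscle markers were also called higher (4 of 5), while of 7 fibroblast, 5 endothelial and 5 T cell markers 0 were called. On the adjusted p alone 4 of the 5 endothelial markers were higher, such as *Emcn* (log2 fold change 0.70) and *Pecam1* (0.54). Of the fibroblast markers *Col1a1* (log2 fold change -0.76) and *Col1a2* (-0.97) were lower. Over all genes 41.9% passed on the adjusted p alone, in either direction. The summed fibroblast markers were at 160012 to 260347 normalized counts in CTL tumors and, without replicate 1 (252720), at 74885 to 157962 in *Filip1l*-knockdown tumors. Their part in the oxidase results was not tested. *Cd79b*, the B cell marker analysed, and *Sftpb*, of 4 lung epithelium markers, were called higher.

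Of the other NADPH oxidase genes fixed for comparison, 14 were analysed, 2 were called higher (14.3%, against 6.2% of all genes) and 0 lower (against 3.97%), and their median log2 fold change was 0.12. The 2 were *Duox1*, the other dual oxidase, and its maturation factor *Duoxa1*. *Duox1* ran from 7.47 to 20.9 normalized counts in CTL tumors (median 10.0) and reached 18.7 to 35.8 with *Filip1l* knocked down (median 26.3), with overlap, and its log2 fold change was 1.09 (SE 0.30, limma adjusted p = 0.00879). That call ended without CTL replicate 5 (0.98) and at a pseudocount of 8 (0.78), both below the fold threshold. *Duoxa1* ran from 17.0 to 52.3 in CTL tumors (median 29.6) and reached 56.5 to 158 with *Filip1l* knocked down (median 107), without overlap, and its log2 fold change was 1.66 (SE 0.29, limma adjusted p = 3.51e-04). *Duoxa1* and *Duoxa2* share 682 exonic bases on opposite strands, 17.1% of those of *Duoxa1* and 42.8% of those of *Duoxa2*. Reads of the more abundant *Duoxa2* in that stretch cannot be told from *Duoxa1* without the strand setting.

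Among the phagocyte partners, *Ncf4* (p40phox) had 227 ± 42.4 normalized counts in CTL tumors and 274 ± 67.4 after *Filip1l* knockdown (SD, n = 6 each, log2 fold change 0.25, limma adjusted p = 0.246, and 0.15 without replicate 1). *Rac2*, the GTPase of the phagocyte enzyme, was at 602 ± 162 and 889 ± 214. Its log2 fold change of 0.56 was past 0.05 on the adjusted p alone (limma adjusted p = 0.0321), and without knockdown replicate 1 it was 0.49 and was not (limma adjusted p = 0.0600). It was also not past 0.05 without CTL replicate 1, 2, 5 or 6, without knockdown replicate 2, 3 or 6 (limma adjusted p up to 0.0747), or in limma without a trend (adjusted p = 0.0511). *Rac1* (0.24) was higher on the adjusted p alone, and *Rac3*, *Sh3pxd2b* and *Arhgef7* were lower. Of the 14 genes fixed for comparison, 4 were higher and 3 lower on that measure, against 41.9% of all genes in either direction.

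Of the enzymes that use or remove superoxide and hydrogen peroxide, 16 were in the table. *Gpx2*, the glutathione peroxidase of gut epithelium, was the 1 called higher (6.25% of the list, against 6.2% of all genes), 0 were called lower (against 3.97%), and the median log2 fold change was -0.047. *Gpx2* ran from 246 to 740 normalized counts in CTL and from 1031 to 2020 in *Filip1l*-knockdown tumors, without overlap, with a log2 fold change of 1.80 (SE 0.24, limma adjusted p = 4.07e-05). On the adjusted p alone 4 of the 16 were higher, *Sod2* (0.56) and *Prdx6* (0.63) among them on the log2 scale, and 3 were lower. The enzymes as a list were thus called at about the share of all genes, also on the adjusted p alone (41.9% of all genes).

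The 4 *Duox* and *Duoxa* genes lie together on chromosome 2 from 122279247 to 122347972, a stretch of 68726 bases. Genes around them were listed after the data had been seen. Within 500 kb of the *Duox2* start the table held 19 genes, of which 15 were other genes. Of these 15, 4 were called higher, against 6.2% of all genes, and 2 lower, against 3.97% of all genes. Their median log2 fold change was 0.071. The nearest on either side, *Sord*, sorbitol dehydrogenase, at -63.7 kb (toward lower coordinates), and *Shf* at 70.7 kb, were both called higher, by 1.16 and 1.40 on the log2 scale. *AA467197* at 339 kb had 2.14, and *Frmd5* at -491 kb had -2.02.

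**Figure D5:**
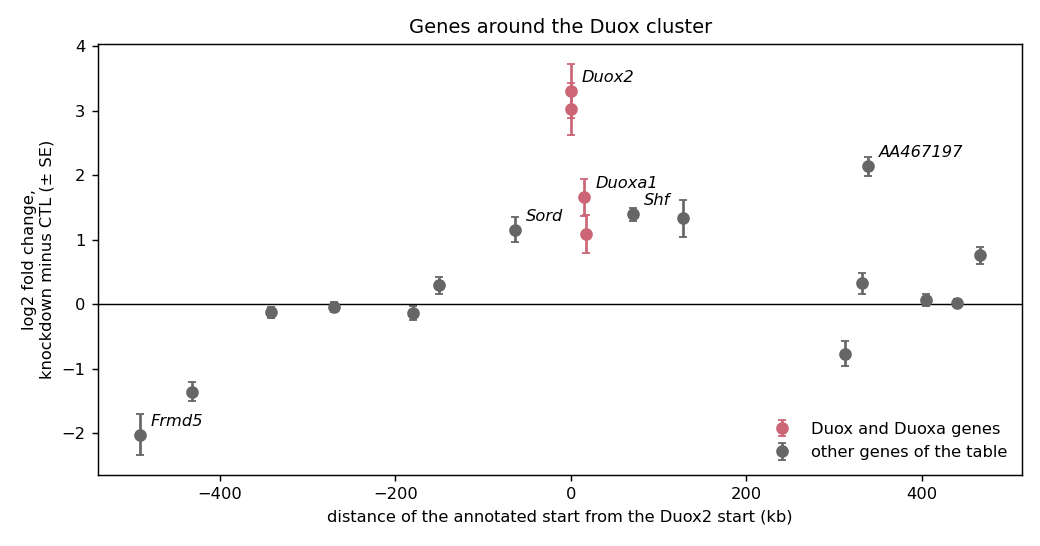
Log2 fold change (vertical axis, *Filip1l* knockdown minus CTL, bars are standard errors) of the 19 genes within 500 kb of the *Duox2* start, against the distance of their annotated starts in kb. The 4 *Duox* and *Duoxa* genes in red lie at 1.09 to 3.31, and the other 15 genes in grey lie between -2.02 and 2.14.

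The genes most like *Nox1*, *Duox2* and *Cybb* across tumors were sought by Pearson's r of the log2 levels after removal of the group means, over 12 tumors and 12887 genes whose mean reached 50 normalized counts, as a description. For *Duox2* they were *Tm4sf5* (r = 0.976), *Gfpt1*, which feeds hexosamine synthesis (0.950), and *Fam3b* (0.942), and all 3 were called higher, with log2 fold changes of 3.07, 1.20 and 3.16. For *Nox1* they were *Tmem170b* (0.890), *Pzp* (0.880) and *Samd9l* (0.875), of which *Pzp* was called higher. For *Cybb* they were *Nrg1* (0.956), *Tmeff1* (0.954) and *Gpr34* (0.952), of which *Nrg1*, a ligand of ERBB receptors, was called lower at -1.69. Such correlations share the library, the depth and the cell makeup of each tumor.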

How the data were processed

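RNA from 12 allograft tumors, 6 CTL and 6 *Filip1l*-knockdown, was sequenced. Per the submitters' processing notes, bcl2fastq 2.20, Trimmomatic 0.36, STAR 2.5.2b, featureCounts of Subread 1.5.2 and DESeq2 were used with mm10. The authors deposited counts per gene divided by size factors, a normalized signal not corrected for length. In every tumor 100% of the values were whole multiples, within 0.01, of the value of 1 read. These reads were recovered for count tests as alternatives, and edgeR called 1635 genes and DESeq2 1652 against 1596 in limma. In 3 tumors 1 read is worth within 1% of 1, where wholeness says less. A value of 3 reads, the floor of detection, was 2.59 to 4.48 normalized counts, and such floors cover counting error only.

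Groups were taken from the labels. The comparison used limma 3.58.1 (R 4.3.3) on log2(normalized count + 1) with a mean-variance trend and Benjamini-Hochberg adjustment over 15687 genes. A filter at a mean of 5 removed 0 genes, since the lowest mean was 9.28. Calls needed both an adjusted p below 0.05 and a log2 fold change of more than 1 in size. Single values were compared by exact two-sided permutation tests over all 924 arrangements (Python 3.11.15, scipy 1.17.1). The fits were tested on simulated data. Symbols, positions and exon lengths came from GENCODE vM21 (GRCm38), promoters from RefSeq (9 of 9 genes matched).

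The 9 genes, the marker and partner lists and the tests were chosen with earlier results of these data known. All 9 genes, partner and enzyme genes that were called, *Ncf4*, *Rac2*, *Duox1*, *Duoxa1*, and the 3 genes most like *Nox1*, *Duox2* and *Cybb* were named by rule, and other names were chosen after their values were seen. Other settings tried were a pseudocount of 0.5 or 8, leaving the filter off or raising it to 20, equal 75th percentiles or equal totals, no trend, a replicate block, chromosome medians removed, edgeR 4.0.16, DESeq2 1.42.0, other marker references and leaving out each tumor. Tumors that share a replicate number were not more alike (correlations of deviations -0.269 to 0.0990), and the number was not used as a pairing. The p-values of within-tumor ratios were adjusted over the 3 ratios tested, and 1 of these and 1 partner gene are not reported here. Figures were drawn with matplotlib 3.10.9.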

Additional observations from a re-analysis of the deposited data

Results flagged for a closer look

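Of 56 groups of 6 values examined, 3 held a highest or lowest tumor far from the others. That is about the share of 1 in 20 that chance gives. *Nox1* was 31.4 normalized counts in CTL replicate 5, and the next CTL tumor was at 16.0. *Filip1l*-knockdown replicate 1, the tumor with the highest leukocyte markers, had 1275 normalized counts of *Ncf1*, where the next tumor had 773. *Filip1l*-knockdown replicate 5 had the lowest *Cybb* relative to the pan-leukocyte markers, 0.58 on the log2 scale, where the next was at 0.97. The part of these tumors' makeup in the values was not tested.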

How the results depend on the processing

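*Nox1*, *Duox2* and *Duoxa2* were called higher in the 12 fits that left out a tumor and in 11 other settings, with log2 fold changes from 2.60 to 3.31 for *Nox1*, 3.13 to 3.61 for *Duox2* and 2.82 to 3.33 for *Duoxa2*. Over these settings 1352 to 1712 genes were called. With the replicate number as a block, which the check of the tumors gave no ground for, 1554 genes and the same count of 3 of the 9 genes were called. *Duox1* lost its call at a pseudocount of 8 (0.78) and without CTL replicate 5 (0.98). Directions near 0 turned. *Cybb* was 0.011 with DESeq2 and ran from -0.21 to 0.074 when tumors were left out, above 0 only without *Filip1l*-knockdown replicate 4 or 5. *Ncf1* ran from -0.060, without knockdown replicate 1, to 0.19. When tumors were left out, *Noxo1* to *Ncf1* ran from 0.53 to 1.04, *Cybb* relative to the pan-leukocyte markers from -0.28 to -0.15 and *Cyba* from -0.19 to 0.027. With neutrophil markers as the reference *Cybb*, *Ncf1* and *Cyba* were at -1.17, -1.0 and -1.06. *Noxo1* relative to the epithelium markers was -0.49 (exact permutation, adjusted p = 0.0476) at a pseudocount of 8. The causes were not tested. *Noxa1* and *Duox1* had no value under the filter at 20. Depth limits *Noxa1* and *Duox1*, which rest on few reads.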
